A study of Mus musculus with 9 samples.

Results

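The Slc25a genes encode the mitochondrial solute carriers, and they were followed in cardiomyocyte libraries of CD1 mice at 3 postnatal ages. A gene was taken as a member when its symbol in the count table was Slc25a followed by a number, which gave 44 of 15824 genes. The 3 further genes of that name in the GENCODE M21 annotation (Slc25a41, Slc25a48 and Slc25a54) were not analysed here. The libraries came from postnatal day 1 (P1), day 14 (P14) and day 56 (P56), with 3 libraries at each age, named replicate 1 to 3 as in the labels. All 3 groups share the CD1 strain, carry no labelled mutation or treatment and are labelled as isolated cardiomyocytes, from which RNA depleted of ribosomal RNA was sequenced. Each library pooled 12 hearts at P1 and 6 to 7 hearts at P14 and P56. The protocols in the labels describe whole myocytes as well as nuclei sorted on Pcm1, and mention hearts taken after surgery although no sample is labelled with one. The labels do not say which preparation gave which library.

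Carriers of this family are small proteins of the inner mitochondrial membrane that exchange nucleotides, phosphate, carboxylic acids, amino acids and cofactors between the cytosol and the matrix. In the heart they move ATP out to the myofibrils and bring in ADP, phosphate, acylcarnitines and the reducing equivalents of the malate-aspartate shuttle. Around birth the heart turns from glucose and lactate towards fatty acids as fuel, and its mitochondria grow in number and content.

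Totals were 36619799 to 58538025 counts per library, and Slc25a genes held a share of 0.203 to 0.213% (P1), 0.212 to 0.214% (P14) and 0.248 to 0.267% (P56). All 8 cardiomyocyte markers were present, with 50621 to 90773 CPM (counts in every 1000000, scaled by TMM) between them in each library. The transcript of the sorting marker Pcm1 averaged 248 ± 5.25 (P1), 136 ± 9.90 (P14) and 173 ± 3.90 CPM (P56). Of 34 markers of fibroblasts, endothelium, leukocytes, smooth muscle, pericytes and epicardium, none was at 0 over an age, and their summed level ran from 378 to 587 CPM (P1), 568 to 1508 CPM (P14) and 119 to 250.2 CPM (P56). At P14 this sum was highest in replicate 1 and lowest in replicate 3. Libraries were fitted in 1 model, and "rose" or "fell" below means an adjusted p under 0.05 (edgeR, quasi-likelihood test, adjusted by Benjamini and Hochberg's method over the 15817 genes tested). A log2 change is given with its standard error (SE), a level with the SD of 3 libraries. The p-values measure the spread between these pools of hearts. In RNA from many cells, fewer cells of a type and less RNA per cell cannot be told apart.

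All 44 members passed the filter on low counts, and 37 of them (84.1%) differed among the 3 ages, beside 78.0% of all genes tested. From P1 to P14, 16 members rose and 10 fell, beside 28.4% of all genes up and 27.5% down. From P14 to P56, 19 rose and 10 fell (27.5% and 28.5% of all genes), and from P1 to P56, 20 rose and 10 fell (30.9% and 31.7%, 62.6% together). Changes of at least 1 on the log2 scale past the threshold were fewer, with 7 up and 2 down at the first step (13.3% and 9.38% of all genes), 1 up and 4 down at the second (6.19% and 14.9%) and 9 up and 4 down over the whole span (12.7% and 16.2%). With upper quartile scaling the whole span gave 18 up and 14 down, with the median of all genes shifted by −0.11. That scaling ended the calls of Slc25a28 and Slc25a36 at the first step, of Slc25a12, Slc25a15, Slc25a27 and Slc25a33 at the second and of Slc25a16 and Slc25a37 over the whole span. It brought Slc25a42 at the second step and Slc25a3, Slc25a25, Slc25a27 and Slc25a44 over the whole span past the threshold, all downward. The median log2 change of the members was 0.11, 0.00 and 0.21 over these comparisons, beside 0.00, −0.02 and −0.03 for all genes. The 7 members with no difference among the ages carry phosphate (Slc25a3), ATP-Mg (Slc25a25), oxoglutarate (Slc25a11), acylcarnitine (Slc25a20), ornithine (Slc25a2), coenzyme A (Slc25a42) and NAD (Slc25a51).

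**Figure D1:**
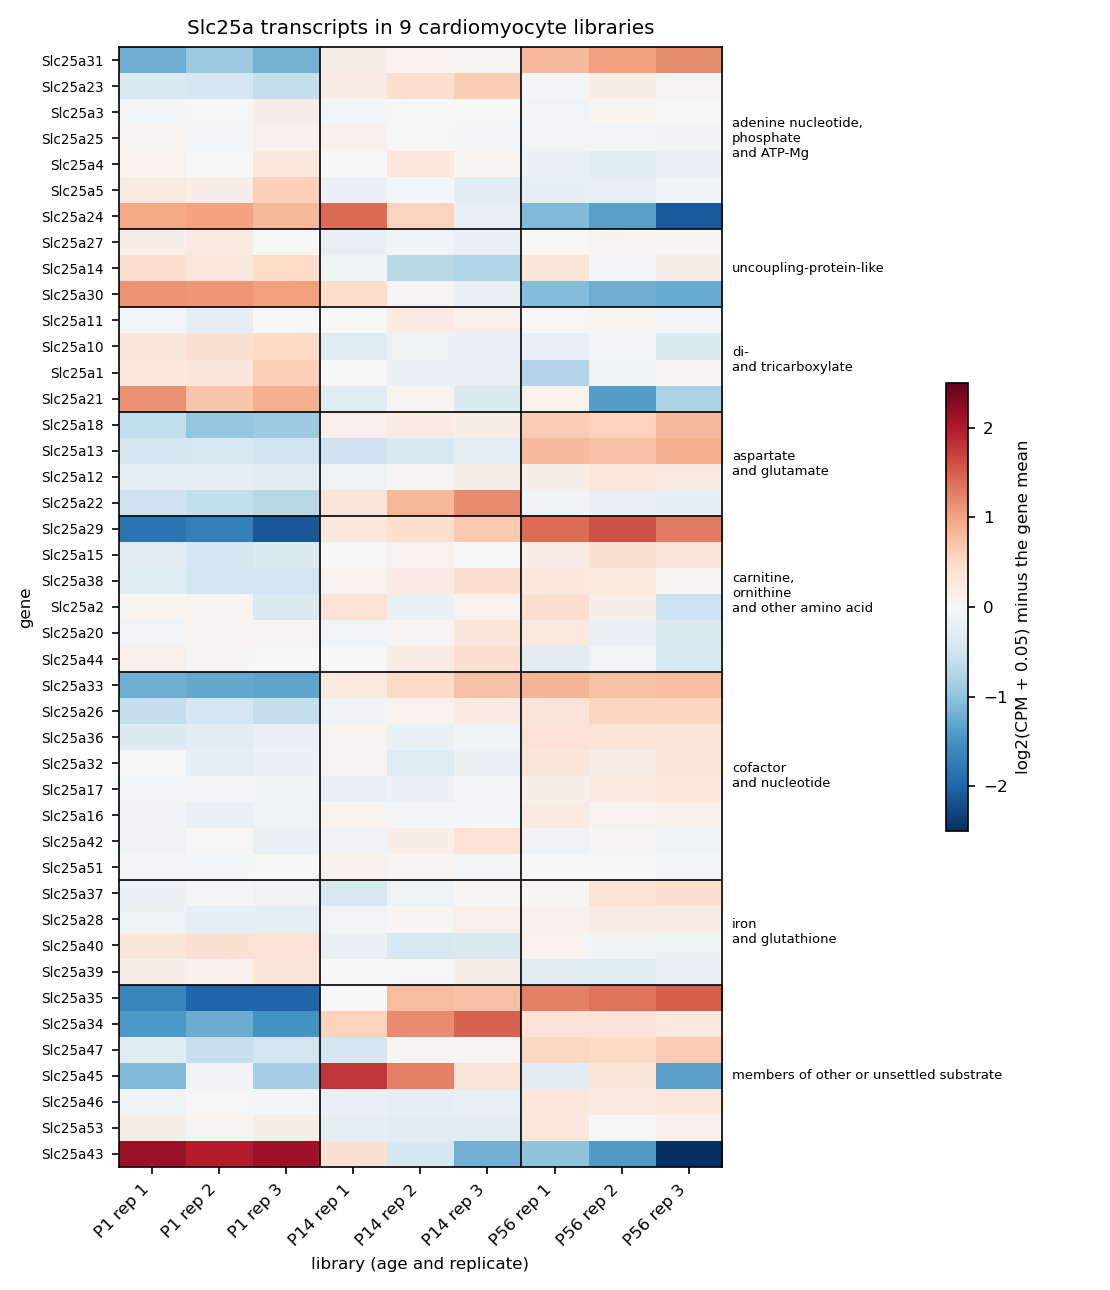
Level of the Slc25a genes reported here (rows, grouped by what the carrier moves) in the 9 libraries (columns), as log2(CPM + 0.05) minus the gene's own mean over the libraries. Slc25a43, Slc25a24 and Slc25a30 run from red at P1 to blue at P56, Slc25a29, Slc25a35 and Slc25a31 the other way, and Slc25a34, Slc25a22 and Slc25a45 peak at P14.

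Summed over the family, Slc25a transcripts came to 1876 to 1901 CPM (P1), 1989 to 2295 CPM (P14) and 2757 to 2852 CPM (P56), with no overlap between ages. The gap between P1 and P14 rests on TMM scaling. As plain shares of all counts, P1 (0.203 to 0.213%) and P14 (0.212 to 0.214%) overlapped. Slc25a13 alone made up 33.6 to 36.0% of the summed CPM at P56, against 20.8 to 22.3% at P1. Without it, the P14 libraries (1599.9 to 1815 CPM) and the P56 libraries (1798 to 1831 CPM) overlapped.

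Per kilobase of exon the most abundant members were Slc25a13 (108, 114 and 257 CPM per kilobase at P1, P14 and P56), Slc25a4 (75.0, 74.6 and 59.1), Slc25a12 (31.1, 37.6 and 43.0) and Slc25a3 (30.9, 29.8 and 29.9), in this order at every age. Slc25a13 spans 175956 bases and Slc25a12 96687, against 4488 for Slc25a4 and 7486 for Slc25a3, and whether introns were counted is not stated. Ranked per kilobase of gene span, an alternative chosen after seeing the data, Slc25a4 came first and Slc25a3 second at every age, while Slc25a13 ranked 10th, 12th and 6th. The order of the leading carriers thus depends on the length used, and the changes between ages do not.

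Promoter windows were taken from RefSeq (build GRCm38.p6, 250 bases before to 50 after a start), which held 44 windows for 34 of the 44 members. They were searched on both strands for 4 motifs of factors tied to mitochondrial or housekeeping genes. The NRF1 letters (GCGC, any 1 base, TGCGC) were in 2 of the 44 windows (4.55%, beside 4.60% of all 32851 windows), those of Slc25a3 and Slc25a31. The SP/KLF GC box GGGCGG was in 37 windows (84.1%, beside 35.7%), the cyclic AMP response element TGACGTCA in those of Slc25a25 and Slc25a36 (4.55%, beside 1.79%), and the estrogen-related receptor letters TNAAGGTCA in none (1.28% of all windows). All windows cover 27025 genes, also ones outside the count table, and were not matched for GC content, so these shares show no enrichment particular to the family. Both NRF1 matches are shown with the stretch upstream of Slc25a29, whose start lies 162 bases from the first annotated, noncoding transcript of Slc25a47 on the other strand. The protein-coding transcripts of Slc25a47 start 15245 bases from Slc25a29. Only bases before every annotated start are printed, 5′ to 3′ on the gene's strand, with the NRF1 letters (Slc25a3, Slc25a31) or the GC box (Slc25a29, where it reads CCGCCC, its reverse complement) in capitals.
Slc25a3, chr10:91124060-91124217, minus strand: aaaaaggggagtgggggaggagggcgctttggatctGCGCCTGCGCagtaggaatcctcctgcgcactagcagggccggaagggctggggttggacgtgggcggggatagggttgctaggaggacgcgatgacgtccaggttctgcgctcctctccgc
Slc25a31, chr3:40708621-40708854, plus strand: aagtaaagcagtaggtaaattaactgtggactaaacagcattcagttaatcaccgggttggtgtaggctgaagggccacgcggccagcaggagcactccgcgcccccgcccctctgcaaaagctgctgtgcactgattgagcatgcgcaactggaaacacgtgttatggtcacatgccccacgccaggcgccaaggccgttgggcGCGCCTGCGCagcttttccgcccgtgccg
Slc25a29, chr12:108835884-108836045, minus strand: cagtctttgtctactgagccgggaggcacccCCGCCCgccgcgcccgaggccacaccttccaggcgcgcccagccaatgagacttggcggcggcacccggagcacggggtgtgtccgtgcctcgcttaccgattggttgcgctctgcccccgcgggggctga
A match describes the letters and was not tested as a binding site. Of the 2 genes with the NRF1 letters, Slc25a31 rose at both steps, while no change of Slc25a3 passed the test with TMM scaling.

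The carriers of adenine nucleotides, phosphate and ATP-Mg (7 members) showed 2 rises and 1 fall from P1 to P14. From P14 to P56 they showed 1 rise and 3 falls. Of all genes, 28.4% rose and 27.5% fell at the first of these steps, and 27.5% and 28.5% at the second. Slc25a4 (ENSMUSG00000031633, chromosome 8 46206797 to 46211284) encodes ANT1, the ADP/ATP exchanger of heart and skeletal muscle, and stood at 173, 161 and 195 CPM at P1, 161, 195 and 170.2 at P14 and 145, 131 and 141 at P56. Its P56 libraries lay below all 6 others, which overlapped. It fell from P14 to P56 by 0.34 ± 0.09 on the log2 scale (edgeR adjusted p = 0.0108), while the change from P1 to P14 was −0.01 ± 0.09 (edgeR adjusted p = 0.957). Slc25a5 (ENSMUSG00000016319, X 36795651 to 36798807) encodes ANT2, the form of most dividing cells, and stood at 18.7, 17.9 and 24.2 CPM at P1, 14.5, 15.8 and 13.2 at P14 and 13.8, 13.9 and 14.9 at P56. The P1 libraries lay above the rest, with a fall of 0.49 ± 0.12 from P1 to P14 (edgeR adjusted p = 0.00701) and a change of −0.03 ± 0.12 after it (edgeR adjusted p = 0.846). Slc25a31 (ENSMUSG00000069041, chromosome 3 40708855 to 40726096) encodes ANT4, known from the testis, and stood below both per kilobase of exon (0.670, 1.58 and 2.98 CPM per kilobase at the 3 ages, against 12.3, 8.81 and 8.62 for Slc25a5). It gave 1.31, 1.61 and 1.35 CPM at P1, 3.50, 3.30 and 3.28 at P14 and 5.50, 6.43 and 7.06 at P56, 3 ranges without overlap. It rose by 1.24 ± 0.14 and then 0.91 ± 0.13 (edgeR adjusted p = 6.96e-05 and 0.000357), 4.44-fold over the whole span.

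Slc25a3 (ENSMUSG00000061904, chromosome 10 91116574 to 91124059), which brings phosphate into the matrix for ATP synthase, stood at 163, 166 and 186 CPM at P1, 163, 166 and 166 at P14 and 160.1, 171 and 167 at P56. The ages overlapped, and its log2 change over the whole span was −0.05 ± 0.06 (edgeR adjusted p = 0.506). With upper quartile scaling Slc25a3 fell over that span (−0.16, edgeR adjusted p = 0.041). The calcium-regulated ATP-Mg carriers went separate ways. Slc25a24 (ENSMUSG00000040322, chromosome 3 109123149 to 109168457) gave 4.77, 4.98 and 4.41 CPM at P1, 6.59, 3.62 and 2.12 at P14 and 1.11, 0.918 and 0.535 at P56. Its P14 libraries ran in the order of the markers of other cell types, and all P56 libraries lay below the rest. It fell from P14 to P56 by 2.27 ± 0.40 (edgeR adjusted p = 0.00097), 4.82-fold. With the mean of those markers as a covariate the change was −0.25 (edgeR adjusted p = 0.772), and that from P1 to P14, −0.20 ± 0.35 without it (edgeR adjusted p = 0.654), became −1.63 (edgeR adjusted p = 0.00617). Without P14 replicate 1 the first step was also past the threshold, at −0.71 (edgeR adjusted p = 0.0392). Slc25a23 rose by 0.88 ± 0.11 from P1 to P14 (edgeR adjusted p = 0.000118) and fell by 0.35 ± 0.11 after it (edgeR adjusted p = 0.0199). The fall missed the threshold when P14 replicate 2 or 3 or P56 replicate 1 or 3 was left out (−0.36 to −0.25, edgeR adjusted p = 0.0507 to 0.0643). Slc25a25 stayed between 14.0 and 16.1 CPM in all 9 libraries.

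All 3 members close to the uncoupling proteins fell from P1 to P14, beside 27.5% of all genes. Slc25a30 (ENSMUSG00000022003, chromosome 14 75760117 to 75787037), a carrier described in kidney, gave 10.9, 10.8 and 10.1 CPM at P1, 6.72, 5.22 and 4.39 at P14 and 2.31, 2.11 and 2.05 at P56, 3 ranges without overlap. It fell by 0.96 ± 0.15 at the first step (edgeR adjusted p = 0.000395) and by 1.34 ± 0.16 at the second (edgeR adjusted p = 9.35e-05), 4.91-fold over both. With the markers of other cell types in the fit the second step was −0.72 (edgeR adjusted p = 0.0887). Slc25a14, known from brain, fell by 0.89 ± 0.18 and then rose by 0.64 ± 0.19 (edgeR adjusted p = 0.0025 and 0.0141), so that P1 and P56 overlapped. Its rise missed the threshold without P14 replicate 2 (0.55, edgeR adjusted p = 0.0567). Slc25a27, also of brain, fell by 0.28 ± 0.07 (edgeR adjusted p = 0.00797) and rose by 0.19 ± 0.07 (edgeR adjusted p = 0.0473). The latter call was lost when any library but P1 replicate 3 or P56 replicate 1 was left out (0.17 to 0.22, edgeR adjusted p = 0.0535 to 0.121). With the markers in the fit, the Slc25a27 changes were −0.17 and 0.01 (edgeR adjusted p = 0.277 and 0.957).

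Carriers of di- and tricarboxylates (4 members) gave no rise at either step and 2 falls, both from P1 to P14. The shares of all genes were 28.4% up and 27.5% down at that step, and 27.5% and 28.5% at the next. Slc25a21 (ENSMUSG00000035472, chromosome 12 56712634 to 57197472), which carries oxoadipate of lysine breakdown, gave 1.42, 1.02 and 1.19 CPM at P1, 0.486, 0.649 and 0.469 at P14 and 0.657, 0.207 and 0.334 at P56. The P1 libraries lay above the others, which overlapped. The gene had 210 counts over the P1 libraries and 53 over those of P56, and it fell by 1.18 ± 0.35 from P1 to P14 (edgeR adjusted p = 0.0155). That call was lost without P1 replicate 1 (−1.05, edgeR adjusted p = 0.059). Its second step was −0.42 ± 0.39 (edgeR adjusted p = 0.382), and −0.97 without P56 replicate 1 (edgeR adjusted p = 0.0384). Slc25a10, the dicarboxylate carrier, fell by 0.60 ± 0.12 from P1 to P14 (edgeR adjusted p = 0.00234) and then changed by 0.00. Slc25a1, which exports citrate for fatty acid synthesis, passed the test over the whole span only (−0.66 ± 0.23, edgeR adjusted p = 0.0305). This call was lost without P1 replicate 2, P1 replicate 3 or P56 replicate 1 (−0.70 to −0.45, edgeR adjusted p = 0.0533 to 0.107). Slc25a11 (ENSMUSG00000014606, chromosome 11 70644196 to 70647479), the oxoglutarate-malate exchanger of the malate-aspartate shuttle, gave 19.2, 17.2 and 20.4 CPM at P1, 20.0, 23.1 and 22.0 at P14 and 20.1, 20.4 and 19.1 at P56. These ranges overlapped. Its change over the whole span was 0.07 ± 0.09 (edgeR adjusted p = 0.498), and the first step, 0.20 ± 0.09 (edgeR adjusted p = 0.0777), passed only without P14 replicate 1 (0.25, edgeR adjusted p = 0.0296).

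All 4 carriers of aspartate and glutamate passed the test at the second step, 3 of them upward. Of all genes, 27.5% rose and 28.5% fell at that step. Slc25a13 (ENSMUSG00000015112, chromosome 6 6041218 to 6217173) encodes citrin, an aspartate-glutamate exchanger of the malate-aspartate shuttle best known from liver. It stood at 419, 422 and 395 CPM at P1, 389, 431 and 480.3 at P14 and 978, 927 and 1028 at P56. P1 and P14 overlapped and every P56 library lay far above them. Its change from P1 to P14 was 0.07 ± 0.08 (edgeR adjusted p = 0.468), and from P14 to P56 it rose by 1.17 ± 0.08 (edgeR adjusted p = 4.87e-06), 2.26-fold. With the markers of other cell types in the fit the first step was 0.29 (edgeR adjusted p = 0.0366). The second step exceeded the first by 1.10 ± 0.14 (edgeR adjusted p = 0.000256), or by 0.56 with the markers in the fit (edgeR adjusted p = 0.0919). Slc25a12 (ENSMUSG00000027010, chromosome 2 71271063 to 71367749) encodes aralar, the exchanger of the same kind in heart and brain, and gave 231, 233 and 222 CPM at P1, 249, 275 and 303 at P14 and 305, 324 and 318 at P56. The ages did not overlap. It rose by 0.27 ± 0.07 at the first step (edgeR adjusted p = 0.00926) and 0.19 ± 0.07 at the second (edgeR adjusted p = 0.0405). The second call was lost when any library but P14 replicate 3 or P56 replicate 1 was left out (0.13 to 0.19, edgeR adjusted p = 0.0554 to 0.108), and the value was −0.11 with the markers in the fit (edgeR adjusted p = 0.556).

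The glutamate carriers Slc25a22 and Slc25a18 parted after P14. Slc25a22 (ENSMUSG00000019082, chromosome 7 141429744 to 141437892) gave 9.77, 9.21 and 8.74 CPM at P1, 17.5, 25.1 and 32.1 at P14 and 13.3, 12.4 and 11.9 at P56. The P14 libraries lay highest, in the reverse order of the markers of other cell types, and no 2 ages overlapped. It rose by 1.43 ± 0.18 (edgeR adjusted p = 0.00014) and fell by 0.99 ± 0.18 (edgeR adjusted p = 0.0013), with a change of 0.44 ± 0.18 over the whole span (edgeR adjusted p = 0.0574) that passed without P14 replicate 1 or 3 (0.44 in both cases, edgeR adjusted p = 0.00369 and 0.0133). Slc25a18 (ENSMUSG00000004902, chromosome 6 120773578 to 120794336) gave 4.27, 3.35 and 3.55 CPM at P1, 7.21, 7.57 and 7.34 at P14 and 10.2, 9.83 and 11.6 at P56, again without overlap. It rose by 0.98 ± 0.12 and 0.52 ± 0.12 (edgeR adjusted p = 9.4e-05 and 0.00383), 2.83-fold in all. With the markers in the fit its second step was 0.41 (edgeR adjusted p = 0.271).

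Among carriers of carnitine, ornithine and other amino acids (6 members), 3 rose from P1 to P14, beside 28.4% of all genes. From P14 to P56, 2 rose and 1 fell, beside 27.5% and 28.5% of all genes. Slc25a29 (ENSMUSG00000021265, chromosome 12 108825873 to 108835883), which carries arginine, lysine and other basic amino acids, gave 1.64, 1.80 and 1.33 CPM at P1, 7.21, 8.03 and 9.35 at P14 and 15.8, 18.1 and 14.8 at P56. These ranges were well apart. The gene rose by 2.36 ± 0.15 (edgeR adjusted p = 1.7e-06) and 0.99 ± 0.14 (edgeR adjusted p = 0.000252), 10.2-fold over both steps, and its second step was smaller than its first by 1.37 ± 0.24 (edgeR adjusted p = 0.00129). With the markers of other cell types in the fit the second step was 0.63 (edgeR adjusted p = 0.108). Slc25a20 (ENSMUSG00000032602, chromosome 9 108662088 to 108684641), the carrier by which acylcarnitines enter for fatty acid oxidation, gave 26.6, 29.5 and 28.7 CPM at P1, 26.7, 29.5 and 34.6 at P14 and 33.1, 24.8 and 21.8 at P56. All ages overlapped. Its changes were 0.10 ± 0.15 and −0.19 ± 0.15 (edgeR adjusted p = 0.597 and 0.307), and the second was −0.38 without P56 replicate 1 (edgeR adjusted p = 0.0217).

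Slc25a15, the ornithine carrier of the urea cycle, rose by 0.39 ± 0.09 and 0.28 ± 0.09 (edgeR adjusted p = 0.00396 and 0.0212). Its second call was lost without P14 replicate 3, P56 replicate 2 or P56 replicate 3 (0.23 to 0.26, edgeR adjusted p = 0.0528 to 0.0726) and with the markers in the fit (0.18, edgeR adjusted p = 0.543). Slc25a38, which brings in glycine for haem synthesis, rose from P1 to P14 by 0.67 ± 0.12 (edgeR adjusted p = 0.000935) and stood at 9.61 ± 1.12 and 9.19 ± 0.845 CPM after it. Slc25a44, a carrier of branched-chain amino acids, fell from P14 to P56 by 0.45 ± 0.13 (edgeR adjusted p = 0.0133), a call lost without P56 replicate 3 (−0.39, edgeR adjusted p = 0.0523). Slc25a44 with the markers in the fit gave −0.76 (edgeR adjusted p = 0.052). Slc25a2, a second ornithine carrier, stayed between 0.557 and 1.11 CPM.

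**Figure D2:**
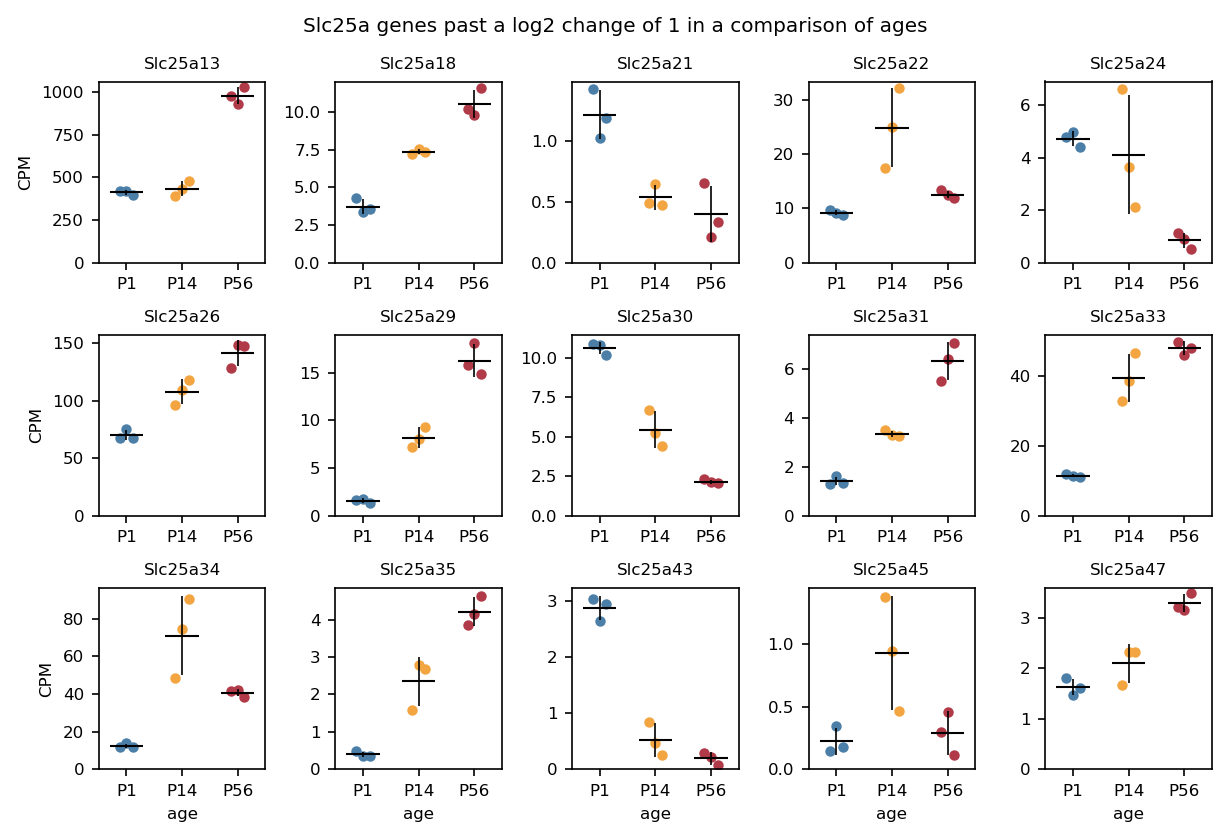
CPM (TMM scaled) in each library for the 15 Slc25a genes with a log2 change of at least 1 in size past the threshold in a comparison of ages. Points are libraries, the horizontal bar is the mean of 3 and the vertical line its SD; each panel has its own axis from 0. Slc25a13 steps up at P56, Slc25a29, Slc25a31 and Slc25a35 rise at both steps, Slc25a43 and Slc25a30 fall at both.

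No carrier of cofactors and nucleotides (9 members) fell in the main fit with TMM scaling. Of all genes, 27.5% fell at the first step, 28.5% at the second and 31.7% over the whole span. Under alternatives falls did pass at the second step, as that of Slc25a42 with upper quartile scaling (−0.27, edgeR adjusted p = 0.0487). In the main fit 4 rose at the first step and 5 at the second, beside 28.4% and 27.5% of all genes. Slc25a33 (ENSMUSG00000028982, chromosome 4 149744036 to 149774277), which carries pyrimidine nucleotides for mitochondrial DNA and RNA, gave 11.9, 11.4 and 11.2 CPM at P1, 32.9, 38.7 and 46.5 at P14 and 49.8, 46.1 and 48.1 at P56. The P1 libraries lay below all others, and P14 and P56 overlapped. It rose by 1.77 ± 0.11 from P1 to P14 (edgeR adjusted p = 1.72e-06), 3.42-fold. The rise of 0.29 ± 0.11 at the second step (edgeR adjusted p = 0.0471) was lost when any library but P14 replicate 3 was left out (0.17 to 0.31, edgeR adjusted p = 0.0652 to 0.116), and was −0.06 with the markers in the fit (edgeR adjusted p = 0.844). Slc25a26 (ENSMUSG00000045100, chromosome 6 94500331 to 94604672), the S-adenosylmethionine carrier, gave 68.0, 75.3 and 67.9 CPM at P1, 96.2, 109 and 118 at P14 and 128, 149 and 147 at P56, without overlap. It rose by 0.61 ± 0.09 and 0.39 ± 0.09 (edgeR adjusted p = 0.000282 and 0.00383), and the second step was −0.08 with the markers in the fit (edgeR adjusted p = 0.69).

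Slc25a42 (ENSMUSG00000002346, chromosome 8 70184340 to 70212305), a coenzyme A carrier, gave 78.0, 83.4 and 74.3 CPM at P1, 78.8, 93.1 and 107 at P14 and 78.3, 85.0 and 76.3 at P56. The ages overlapped, and its steps of 0.24 ± 0.10 and −0.22 ± 0.10 missed the threshold (edgeR adjusted p = 0.0664 and 0.093). Both passed without P14 replicate 1 (0.35 and −0.33, edgeR adjusted p = 0.00354 and 0.00563) and with the markers in the fit (0.52 and −0.63, edgeR adjusted p = 0.00649 and 0.0217). Slc25a36, a second pyrimidine nucleotide carrier, rose by 0.20 ± 0.07 (edgeR adjusted p = 0.0327) and 0.41 ± 0.07 (edgeR adjusted p = 0.000826). Its first call was lost without P1 replicate 1, P1 replicate 2 or P14 replicate 1 (0.13 to 0.20, edgeR adjusted p = 0.0836 to 0.122) and was 0.09 with the markers in the fit (edgeR adjusted p = 0.544).

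Slc25a17, the peroxisomal member, which carries coenzyme A and other cofactors, rose from P14 to P56 by 0.33 ± 0.06 (edgeR adjusted p = 0.00167), or 0.07 with the markers in the fit (edgeR adjusted p = 0.694). Slc25a32, which carries folate and FAD, rose by 0.40 ± 0.11 at that step (edgeR adjusted p = 0.0134). The call was lost without P14 replicate 2 (0.31, edgeR adjusted p = 0.0512), and with the markers in the fit the value was 0.59 (edgeR adjusted p = 0.102). Slc25a16 passed over the whole span only (0.28 ± 0.07, edgeR adjusted p = 0.00655, and 0.17 with upper quartile scaling, edgeR adjusted p = 0.0677). The NAD carrier Slc25a51 stayed between 25.0 and 28.3 CPM.

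Carriers of iron and glutathione (4 members) moved little, with no log2 change beyond 0.67 in size. Slc25a37 and Slc25a28 encode mitoferrin-1, of red cell precursors, and the more widely expressed mitoferrin-2, both importers of iron. Slc25a28 rose by 0.23 ± 0.08 from P1 to P14 (edgeR adjusted p = 0.0234), a call lost without P1 replicate 2 or 3 or P14 replicate 2 or 3 (0.19 to 0.23, edgeR adjusted p = 0.0589 to 0.0813). Over the whole span it rose by 0.35 ± 0.07 (edgeR adjusted p = 0.00223). Slc25a37 rose by 0.43 ± 0.12 from P14 to P56 (edgeR adjusted p = 0.0155), lost without P56 replicate 2 or 3 (0.35 to 0.39, edgeR adjusted p = 0.0501 to 0.0613). With the markers in the fit its steps were 0.36 and −0.23 (edgeR adjusted p = 0.0345 and 0.349). Slc25a40, one of the glutathione carriers, fell by 0.67 ± 0.08 (edgeR adjusted p = 0.000108) and rose by 0.28 ± 0.08 (edgeR adjusted p = 0.0161), the latter lost without P14 replicate 2 or P56 replicate 1 (0.23 and 0.21, edgeR adjusted p = 0.062 and 0.0544). Its relative Slc25a39 fell from P14 to P56 by 0.30 ± 0.10 (edgeR adjusted p = 0.0268). This was lost without P14 replicate 3, P56 replicate 1 or P56 replicate 2 (−0.29 to −0.24, edgeR adjusted p = 0.0607 to 0.0886), and was −0.43 with the markers in the fit (edgeR adjusted p = 0.179).

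The 7 members of other or unsettled substrate held the widest changes of the family from P1 to P14 and over the whole span, though not from P14 to P56, where Slc25a24 fell and Slc25a13 rose further. Slc25a35 (ENSMUSG00000018740, chromosome 11 68968131 to 68974365) gave 0.474, 0.360 and 0.360 CPM at P1, 1.58, 2.79 and 2.68 at P14 and 3.85, 4.16 and 4.63 at P56, without overlap. It rose by 2.54 ± 0.25 and 0.84 ± 0.21 (edgeR adjusted p = 2.57e-05 and 0.00748), 10.5-fold in all. Its second step was 0.11 with the markers in the fit (edgeR adjusted p = 0.866). The gene shares 1882 bases with Rangrf on the other strand, and reads there cannot be told apart without stranded counting. Rangrf rose by 1.02 ± 0.19 over the whole span (edgeR adjusted p = 0.000956), against 3.39 ± 0.25 for Slc25a35. Shorter overlaps with genes on the other strand touch Slc25a25 (Naif1, 989 bases), Slc25a23 (Crb3, 759), Slc25a11 (Rnf167, 245), Slc25a26 (Lrig1, 144) and Slc25a18 (Atp6v1e1, 32). Protein-coding genes on the other strand also overlap Slc25a2, Slc25a21, Slc25a46 and Slc25a53, and their values are not given here. Slc25a34 (ENSMUSG00000040740, chromosome 4 141618824 to 141623821), the closest relative of Slc25a35, gave 12.0, 13.8 and 11.5 CPM at P1, 48.4, 74.4 and 90.7 at P14 and 41.8, 41.9 and 38.4 at P56. Its P14 libraries were highest, in the reverse order of the markers of other cell types, and no 2 ages overlapped. That order at P14 was common among the members, as in Slc25a12, Slc25a13, Slc25a20, Slc25a22, Slc25a23, Slc25a26, Slc25a29 and Slc25a42. Slc25a34 rose by 2.52 ± 0.20 and fell by 0.81 ± 0.18 (edgeR adjusted p = 5.54e-06 and 0.00446).

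Slc25a43 (ENSMUSG00000037636, X 36743659 to 36777202), which lies 18448 bases from Slc25a5, gave 3.04, 2.63 and 2.94 CPM at P1, 0.843, 0.460 and 0.248 at P14 and 0.294, 0.207 and 0.0668 at P56. P1 lay above all other libraries and P14 and P56 overlapped, on 494, 59 and 25 counts over the 3 libraries of each age. It fell by 2.46 ± 0.40 from P1 to P14 (edgeR adjusted p = 0.000582), 5.48-fold. The fall of 1.45 ± 0.51 at the second step (edgeR adjusted p = 0.0346) was lost when any library but P14 replicate 3 or P56 replicate 1 was left out (−1.53 to −0.90, edgeR adjusted p = 0.0504 to 0.144), and stood at 0.79 with the markers in the fit (edgeR adjusted p = 0.941). Slc25a45 (ENSMUSG00000024818, chromosome 19 5877808 to 5885878) gave 0.142, 0.341 and 0.180 CPM at P1, 1.38, 0.946 and 0.469 at P14 and 0.294, 0.459 and 0.111 at P56, from 37, 106 and 38 counts. P14 lay highest, in the order of the markers of other cell types, an order also seen at P14 in Slc25a24, Slc25a30, Slc25a43, Slc25a14 and Slc25a25. Slc25a45 rose by 2.09 ± 0.53 and fell by 1.69 ± 0.53 (edgeR adjusted p = 0.00766 and 0.0205), the fall being lost without P14 replicate 1 or 2 or P56 replicate 3 (−1.68 to −1.30, edgeR adjusted p = 0.0511 to 0.0645). With the markers in the fit the Slc25a45 steps were 0.85 and 0.08 (edgeR adjusted p = 0.419 and 0.965).

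Slc25a47 (ENSMUSG00000048856, chromosome 12 108836046 to 108856815), the neighbour of Slc25a29, gave 1.80, 1.48 and 1.60 CPM at P1, 1.66, 2.33 and 2.32 at P14 and 3.22, 3.17 and 3.50 at P56. P56 lay above all other libraries. It rose from P14 to P56 by 0.65 ± 0.17 (edgeR adjusted p = 0.00772), after a step of 0.36 ± 0.17 (edgeR adjusted p = 0.0911) that passed without P14 replicate 1 (0.51, edgeR adjusted p = 0.0171). The rise with the markers in the fit was 0.31 (edgeR adjusted p = 0.56). Slc25a46, which sits in the outer membrane and acts in mitochondrial fission and fusion, fell by 0.15 ± 0.05 (edgeR adjusted p = 0.025) and rose by 0.47 ± 0.05 (edgeR adjusted p = 5.27e-05). Its fall was lost without P1 replicate 2 or 3 or P14 replicate 2 (−0.15 to −0.13, edgeR adjusted p = 0.0639 to 0.096), and was −0.13 with the markers in the fit (edgeR adjusted p = 0.25). Slc25a53 fell by 0.36 ± 0.08 and rose by 0.38 ± 0.08 (edgeR adjusted p = 0.00436 and 0.00322), back to 18.4 ± 1.69 CPM from 18.1 ± 0.614 at P1.

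**Figure D3:**
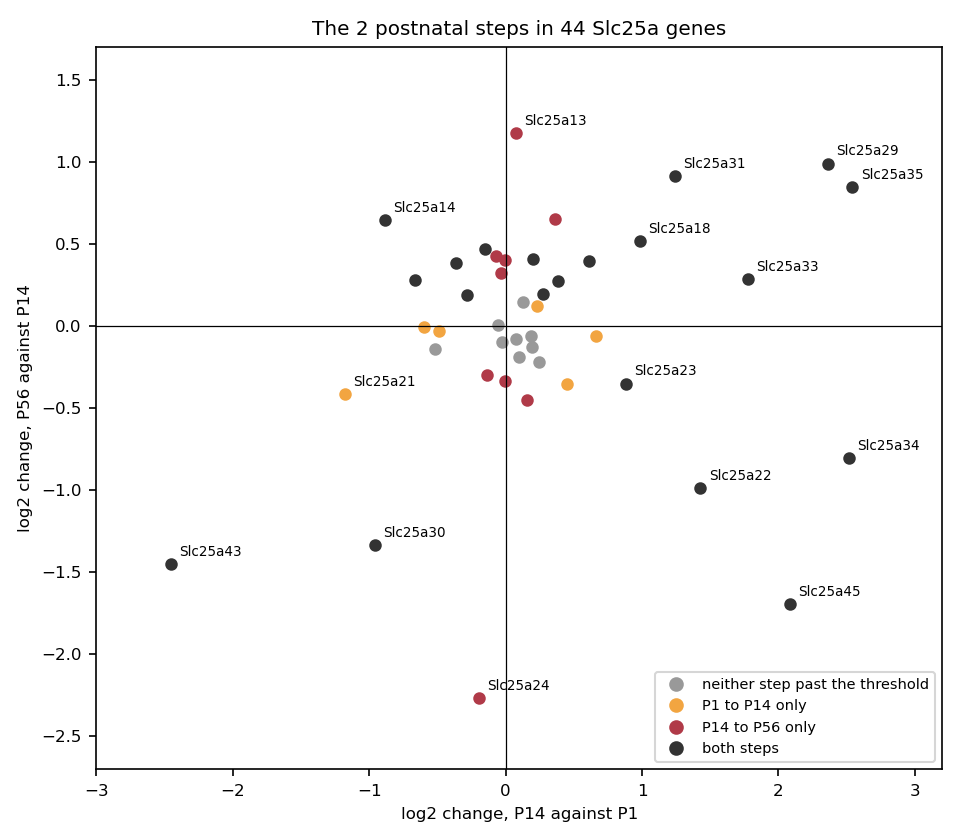
Fitted log2 change from P1 to P14 (x axis) against that from P14 to P56 (y axis) for the 44 Slc25a genes, coloured by which steps passed the threshold. Both axes share the P14 libraries. Slc25a13 moved at the second step alone, and Slc25a34, Slc25a22 and Slc25a45 lie at lower right.

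Set step against step, 9 members rose at both, 2 fell at both (Slc25a30 and Slc25a43), 4 rose and then fell (Slc25a22, Slc25a23, Slc25a34 and Slc25a45) and 5 fell and then rose (Slc25a14, Slc25a27, Slc25a40, Slc25a46 and Slc25a53). A further 9 passed at neither step. The share of all genes with each of these patterns was not computed. At the single steps 28.4% of all genes rose and 27.5% fell, and then 27.5% and 28.5%. With the markers of other cell types in the fit, each member that rose at both steps or fell at both lost a call. For Slc25a36 this was the call of the first step, for the others that of the second. Slc25a22, Slc25a23, Slc25a34, Slc25a14, Slc25a40 and Slc25a53 kept both calls in that fit. The change per step itself differed in 19 members, 8 with the larger value at the second step and 11 with the larger value at the first, beside 24.1% and 26.0% of all genes. A difference of at least 1 was found in 2 and 8 of them (9.72% and 18.0% of all genes). Slc25a45 (−3.78 ± 0.87), Slc25a34 (−3.32 ± 0.31) and Slc25a22 (−2.41 ± 0.30) had the most negative differences, and Slc25a14 (1.53 ± 0.33) and Slc25a13 the most positive of those past the threshold. With the markers of other cell types in the fit the difference of Slc25a45 was −0.78 (edgeR adjusted p = 0.78).

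Ratios of counts between close relatives were compared within each library, where library scaling cancels, for 6 pairs (F statistic with an exact permutation test, 1680 ways to assign 9 libraries to 3 ages, adjusted over the 6 pairs, smallest possible p = 0.00357). The mix of cells need not cancel in such a ratio, and the ratios were not fitted with the markers of other cell types. Slc25a4 gave 8.06 to 9.23 (P1), 11.1 to 12.9 (P14) and 9.41 to 10.5 (P56) counts per count of Slc25a5 (adjusted exact p = 0.00714). The P14 libraries lay highest and no 2 ages overlapped. For Slc25a12 over Slc25a13 the log2 ratio was −0.85 ± 0.01 at P1, −0.65 ± 0.01 at P14 and −1.63 ± 0.10 at P56 (adjusted exact p = 0.00714), so that Slc25a13 gained on Slc25a12 between P14 and P56. Slc25a23 over Slc25a24 went from 2.94 ± 0.06 to 4.16 ± 1.03 and 6.00 ± 0.59 on the log2 scale (adjusted exact p = 0.00714).

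The log2 ratio of Slc25a22 to Slc25a18 was 1.32 ± 0.13, 1.71 ± 0.43 and 0.25 ± 0.19 at the 3 ages (adjusted exact p = 0.0161). P1 and P14 overlapped and P56 lay below both. Slc25a39 over Slc25a40 gave −2.11 ± 0.10, −1.58 ± 0.19 and −2.15 ± 0.15 (adjusted exact p = 0.0343), highest at P14, and without P1 replicate 3 the adjusted exact p was 0.0557. Slc25a28 over Slc25a37 gave −0.04 ± 0.11, 0.27 ± 0.13 and −0.04 ± 0.15 and missed the threshold (adjusted exact p = 0.0536), which it passed without P56 replicate 1 (adjusted exact p = 0.0393).

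**Figure D4:**
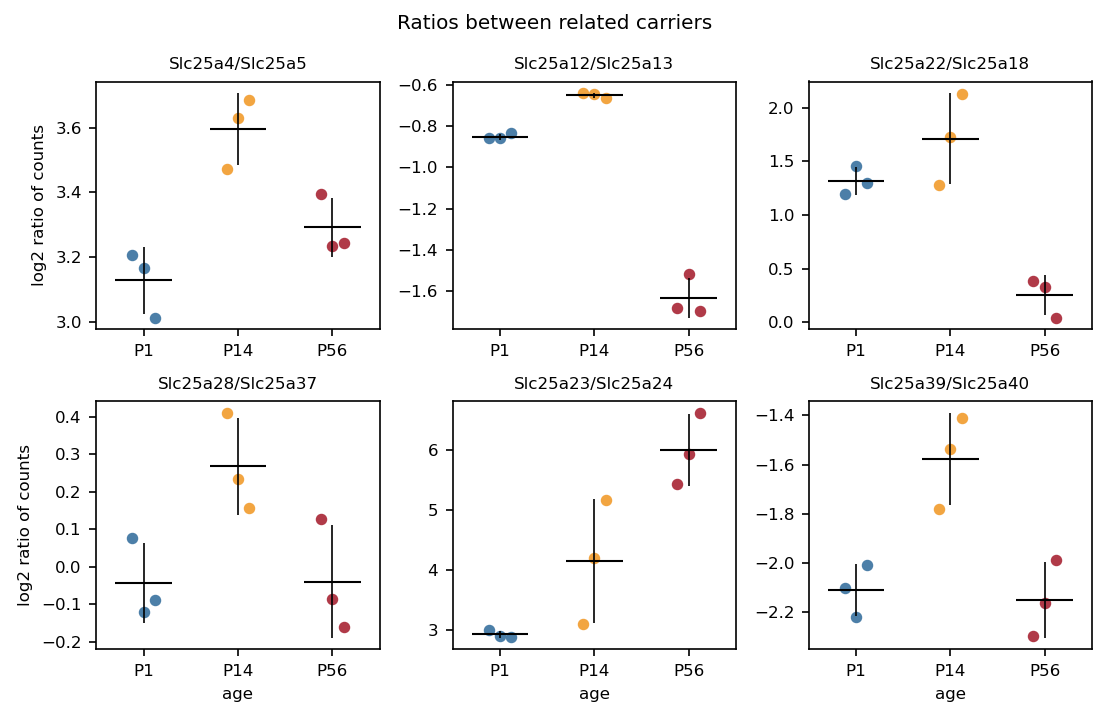
Log2 ratio of counts in each library for 6 pairs of related carriers, by age. Points are libraries, bars the mean of 3 and its SD; axes differ between panels and do not start at 0. Slc25a12/Slc25a13 and Slc25a22/Slc25a18 drop at P56, Slc25a23/Slc25a24 climbs at both steps, and Slc25a4/Slc25a5 peaks at P14.

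Markers of other cell types moved at both steps, mostly upward to P14 and downward after it. Of the 34 markers, 25 rose and 3 fell from P1 to P14 (median log2 change 1.87), none rose and 24 fell from P14 to P56 (median −2.19), and 7 rose and 12 fell over the whole span (median −0.54). Their mean log2 CPM, the marker score, spanned 1.37 to 2.00 (P1), 2.51 to 3.69 (P14) and 0.47 to 1.59 (P56), so P14 did not overlap with the other ages. In a fit with the score as a covariate, 6 members rose and 5 fell from P14 to P56, in place of 19 and 10. All genes dropped too, from 27.5% up and 28.5% down to 14.4% and 13.5%. P14 stood apart in the score, so this fit separates the score poorly from a step to or from P14. Its lost calls and turned signs are therefore not corrected changes. The part of other cells in these changes was not tested. Slc25a13 rose in that fit by 0.85 (edgeR adjusted p = 0.00148). Over the whole span Slc25a29 gave 3.23 (edgeR adjusted p = 4.46e-09), Slc25a35 3.13 (edgeR adjusted p = 2.98e-07), Slc25a43 −3.25 (edgeR adjusted p = 3.29e-06) and Slc25a4 −0.30 (edgeR adjusted p = 0.0266). At the second step Slc25a4 gave −0.21 (edgeR adjusted p = 0.466) and Slc25a31 0.55 (edgeR adjusted p = 0.192).

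**Figure D5:**
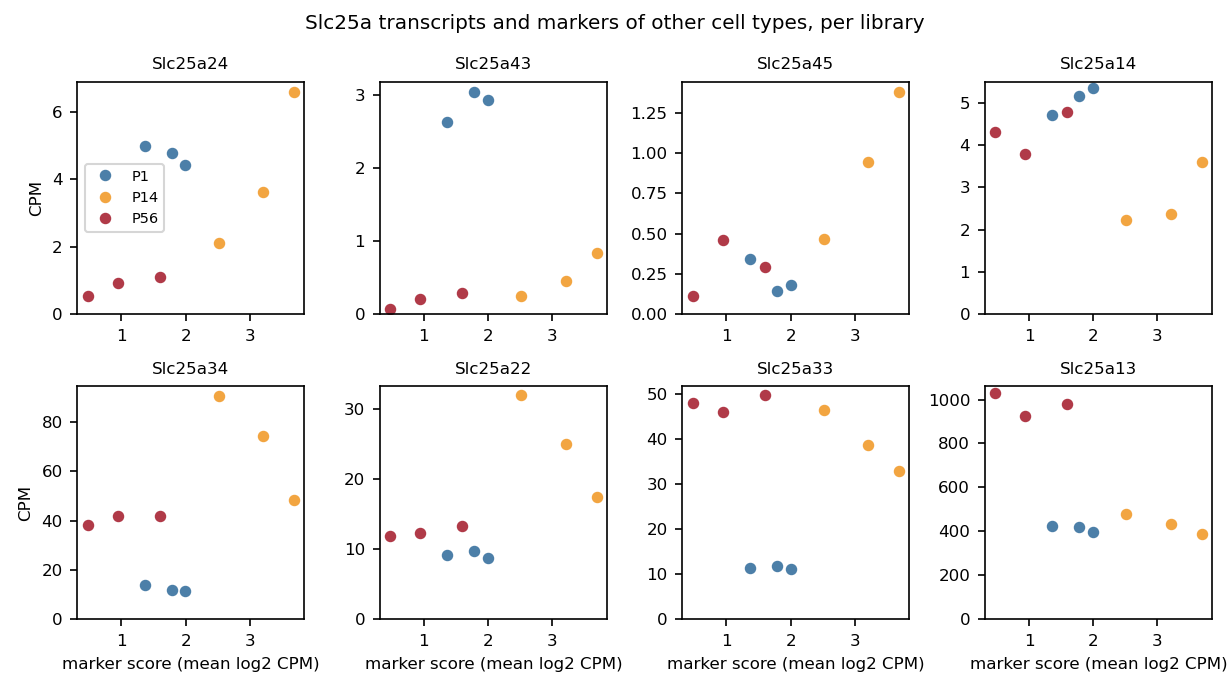
CPM of 8 Slc25a genes in each library (y axis) against the marker score, the mean log2 CPM of 34 markers of other cell types (x axis), coloured by age. Within P14, Slc25a24, Slc25a43, Slc25a45 and Slc25a14 are highest where the score is highest, Slc25a34, Slc25a22, Slc25a33 and Slc25a13 where it is lowest.

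Family genes under other symbols and the partners of the carriers were read beside them. Ucp2, an uncoupling protein, averaged 20.0 ± 1.04 (P1), 37.6 ± 4.23 (P14) and 2.29 ± 0.436 CPM (P56), and fell from P14 to P56 by 4.04 ± 0.15 (edgeR adjusted p = 1.48e-07), a call kept with the markers of other cell types in the fit. Ucp3, the form of muscle and heart, rose by 1.10 ± 0.27 and fell by 1.41 ± 0.27 (edgeR adjusted p = 0.00575 and 0.00163), the fall reading −1.34 with the markers in the fit (edgeR adjusted p = 0.0699). The outer membrane relatives Mtch1 and Mtch2 parted at the second step, with a fall of 0.93 ± 0.09 and a rise of 0.40 ± 0.06 (edgeR adjusted p = 3.85e-05 and 0.000292, the latter 0.156 with the markers in the fit).

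Of 22 other mitochondrial transporters and channels, 9 rose and 3 fell from P1 to P14, 9 rose and 2 fell from P14 to P56, and 14 rose and 4 fell over the whole span. Of all genes, 28.4% rose and 27.5% fell at the first step, and 27.5% and 28.5% at the second. Over the whole span the shares were 30.9% and 31.7%. Mpc1, a subunit of the pyruvate carrier, gave 51.0, 56.9 and 55.1 CPM at P1, 93.7, 108 and 122 at P14 and 221, 269 and 269 at P56, rising by 0.99 ± 0.11 and 1.23 ± 0.11 (edgeR adjusted p = 4.98e-05 and 1.74e-05). The ages were well apart. Slc8b1, the sodium-calcium exchanger of mitochondria, rose by 1.93 ± 0.21 at the first step (edgeR adjusted p = 5.07e-05). The sideroflexin Sfxn5 rose by 1.50 ± 0.13 over the whole span and Sfxn3 fell by 2.71 ± 0.45 (edgeR adjusted p = 3.88e-06 and 0.00047). Of 14 genes of the machinery that imports carriers, 5 rose and 2 fell over the whole span (30.9% and 31.7% of all genes). Tomm5, of the outer membrane pore, stood at 0.77 ± 0.12 and the intermembrane chaperone Timm13 at −0.71 ± 0.22 (edgeR adjusted p = 0.000295 and 0.018). The call of Timm13 was lost without P1 replicate 3, P56 replicate 2 or P56 replicate 3 (−0.61, −0.61 and −0.59, edgeR adjusted p = 0.0671 to 0.0681) and with the markers in the fit (−0.40, edgeR adjusted p = 0.103).

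Enzymes coupled to the carriers (14 genes) gave 8 rises and 3 falls over the whole span, beside 30.9% up and 31.7% down of all genes. Ckmt2, the mitochondrial creatine kinase that works beside the ADP/ATP exchangers, gave 49.0, 46.6 and 46.2 CPM at P1, 342, 424 and 462 at P14 and 694, 774 and 888 at P56. Its ages did not overlap, and it rose by 3.11 ± 0.13 and 0.94 ± 0.12 (edgeR adjusted p = 1.23e-07 and 0.000136) while no rise of Slc25a4 passed the test. The second step of Ckmt2 was 0.32 with the markers in the fit (edgeR adjusted p = 0.144). The aspartate aminotransferases and malate dehydrogenases of the malate-aspartate shuttle changed over the whole span by 1.34 ± 0.10 (Got1), 0.82 ± 0.05 (Got2), 0.46 ± 0.06 (Mdh1) and −0.09 ± 0.10 (Mdh2), with edgeR adjusted p = 1.27e-06, 4.41e-07, 0.000164 and 0.454. Beside the acylcarnitine carrier Slc25a20, Cpt2, which remakes acyl-CoA in the matrix, rose by 0.53 ± 0.13, while Cpt1a, which makes acylcarnitine outside it, fell by 0.35 ± 0.11 (edgeR adjusted p = 0.00521 and 0.0218). Cpt1b, also on this list, was not in the count table, so the Cpt1a value does not stand for the step as a whole. The Cpt1a call was lost without P1 replicate 2, P56 replicate 2 or P56 replicate 3 (−0.32, −0.30 and −0.28, edgeR adjusted p = 0.0682 to 0.0830). Acly, which uses the citrate exported by Slc25a1, fell by 0.59 ± 0.06 (edgeR adjusted p = 1.48e-05).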

How the data were processed

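RNA depleted of ribosomal RNA from 9 cardiomyocyte libraries (3 at each of P1, P14 and P56) was sequenced. The authors deposited whole read counts per gene, with rows averaging at least 10 counts. The submitters' processing notes name STAR 2.4.0g1 with featureCounts 1.4.2 on build GRCm38; the feature counted (exon or gene) and the strand setting are not given in the sources used here. From these counts, CPM with TMM scaling and edgeR 4.0.16 quasi-likelihood tests (filterByExpr, 1 fit of all libraries, Benjamini-Hochberg over 15817 genes, threshold 0.05) were computed in R 4.3.3, and exact permutation tests with scipy 1.17.1. Alternatives were upper quartile scaling, no filter, a replicate block, the marker score as covariate, each library left out, only the ages compared, limma-voom (limma 3.58.1) and DESeq2 1.42.0. Lengths and positions came from GENCODE M21, promoters from RefSeq. The fits were tested on simulated data. Values per library are printed for Slc25a3, Slc25a4, Slc25a5, Slc25a11, Slc25a12, Slc25a13, Slc25a20, Slc25a42 and for members past the threshold with a log2 change of at least 1 in size. From other lists, at most 4 genes per direction at 1 CPM or more were named, besides Pcm1. Members and lists were chosen with earlier results of these data known. Replicate numbers were not taken to pair libraries, since the labels tie no number to a shared litter or day. A single member is counted in the totals and is not reported here by name.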

Additional observations from a re-analysis of the deposited data

How the results depend on the processing

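Counts of Slc25a genes that rose or fell stayed within 1.5 times under upper quartile scaling, no filter, limma-voom, DESeq2 and fits of only the 2 ages. The replicate block gave 16 up and 9 down from P1 to P14, 18 and 11 from P14 to P56 and 20 and 10 over the whole span, and in 7 of 18 comparisons with another age a library correlated best with its own number. With the marker score as covariate, P14 to P56 gave 6 up and 5 down in place of 19 and 10, with all genes falling to 14.4% up and 13.5% down, and the count with a larger second step was 4 in place of 8, Slc25a43 being newly among them. Without P56 replicate 3, 6 fell from P14 to P56; over the libraries left out, 13 to 17 rose and 6 to 10 fell at that step. The marker score turned the sign of Slc25a37 at the first step (0.36), of Slc25a12 (−0.11), Slc25a43 (0.79), Slc25a33 (−0.065), Slc25a26 (−0.075), Slc25a37 (−0.23) and Slc25a45 (0.078) at the second, and of the step difference of Slc25a24 (1.38) and Slc25a17 (−0.060); the cause was not tested. Leaving out a library, the log2 span of the ratio means ran from 0.24 to 0.39 for Slc25a28/Slc25a37 and from 0.49 to 0.68 for Slc25a39/Slc25a40. Slc25a45, Slc25a43 and Slc25a21 rest on few counts.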
